A study of Citrus unshiu with 2 samples.

Results

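Differentially methylated regions in the CHH context that lie in gene promoters and in no other gene feature were described in shoots of Citrus unshiu, the satsuma mandarin, under light drought and under normal water. H stands for any base other than G. The regions were chosen from the authors' deposited table by position, once each by chromosome, start and end, where the feature assigned to the region was promoter alone. There were 14067 such regions among the 82479 CHH regions listed, or 17.1%, and they were assigned to 8344 genes, 28.7% of the 29073 genes with levels in both libraries. One whole-genome bisulfite library was available per condition. The light drought library came from shoots of trees whose soil was left to dry to around 15% moisture in a treatment of 75 days, and the normal water library from shoots of trees kept under normal water. Each condition had 20 trees in a rain-proof tunnel, and 5 months in a greenhouse are recorded for both. The sources used here do not say how many of the trees entered a library. The labels call the material shoots and mature stems, and it holds all cell types of that organ, so that a change within cells and a change in the mix of cells cannot be told apart.

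CHH methylation has no partner cytosine on the other strand that could guide its copying, so it has to be set anew after each replication. In plants this is done by DRM2, which is guided by small RNAs in the pathway known as RNA-directed DNA methylation, and by the chromomethylase CMT2, which acts mainly in long transposons. Small RNA guided methylation is often found at the edges of transposons and in short ones close to genes, and so in promoters. CG methylation is copied by MET1 and CHG methylation by CMT3. Mild water deficit in the cool season is known to promote flowering in citrus.

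With 1 library per condition there is no spread between replicates, no test between conditions was possible, and every value describes these libraries. Each difference is the light drought value less the normal water value, in points of percent methylation. For the regions that order was taken from the name of the table. Being listed depended on the same contrast, so the direction and size of the regions, and the levels of the genes they hit, are given as a description. Read depth is unknown. None of the gene identifiers in the files matched the gene table at hand, so genes are named by identifier and without a function.

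Most promoter-only CHH regions had more methylation under light drought. Of the 14067 regions, 11592 were higher and 2475 were lower, so that 82.4% were higher, beside 80.2% of all CHH regions listed. In the nearest comparable classes the share was 81.5% of 9289 regions in downstream flanks only, 89.5% of 57 regions shared by a promoter and a downstream flank, and 79.8% of 53928 regions outside gene features. The median difference of the higher promoter-only regions was 20.4 points, with quartiles of 15.1 and 26.4 points. That of the lower ones was -15.9 points, with quartiles of -20.8 and -11.5 points. Higher regions were both more numerous and larger. In downstream flanks the medians were 19.9 and -16.4 points, and outside gene features 19.1 and -16.7 points.

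**Figure D1:**
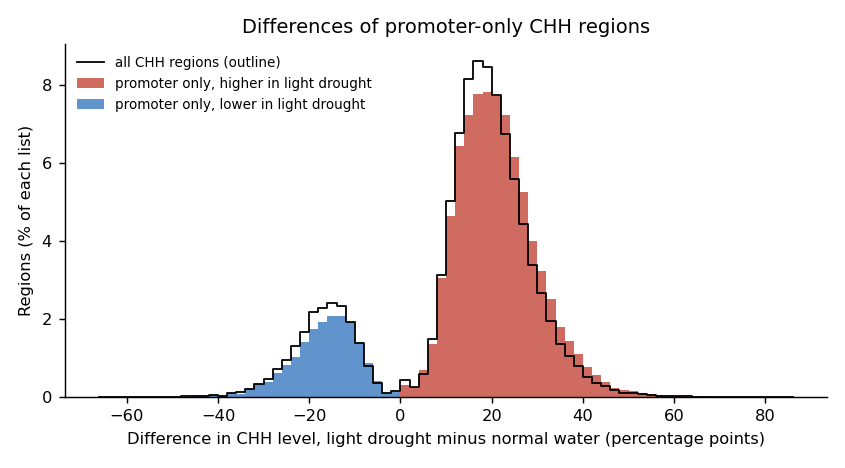
Bars give the percentage of the 14067 promoter-only CHH regions in bins of 2 points of difference (light drought minus normal water), and the outline gives the same for all 82479 CHH regions. Few regions lie near 0, the higher regions peak close to 20 points and the lower ones form a smaller peak on the other side.

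Above 5 points, the share of higher regions grew with the size of the difference. It was 70.6% of the 163 regions below 5 points. Among regions that differed by 5 to 10 points in either direction, 679 were higher and 354 lower, or 65.7% higher. The share was 77.7% of 6127 regions between 10 and 20 points, 87.8% of 4857 between 20 and 30, and 93.4% of 1511 between 30 and 40. At 50 points or more, 64 regions were higher and 2 were lower. Regions with more cytosines were also more often higher. The share was 80.4% of the 7833 regions with 10 cytosines and 93.8% of the 631 regions with 20 or more, while the median size of a higher region was 20.8 points in the first set and 21.1 points in the second.

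The regions were short. Their median length was 49 bp, with 50 bp for higher and 45 bp for lower regions, and the range was 11 to 325 bp. In all they covered 815469 bp. Every region held at least 10 CHH cytosines, the largest held 70, and 55.7% held exactly 10. The p-values in the authors' deposited table took few values in such regions. Among the 7833 regions with 10 cytosines only 24 distinct uncorrected p-values occurred. The smallest, 1.08e-05 in the authors' deposited table, was shared by 372 regions, of which 323 were higher and 49 lower. It equals 2 divided by the 184756 ways of choosing 10 items from 20, which is the lowest two-sided p of an exact rank test on 10 against 10 values. Differences at that p ranged from 4.54 to 82.5 points, so that for such regions the p-value did not separate small from large differences. The sources used here do not name the test behind these p-values.

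Few of the regions had a small corrected p-value. In the authors' deposited table it was under 0.05 in 50 promoter-only regions, 45 higher and 5 lower, which is 0.355% of them beside 0.27% of all CHH regions. None of the regions with 10 cytosines was among these, the fewest cytosines being 16 and the median 27. The authors' deposited table lists 1 as the corrected p of 82.4% of the regions. At the edge of the list, the region of Cs1g17410 had an uncorrected p of 0.0498 and a difference of 8.21 points in the authors' deposited table. Regions outside that edge are not in the table. The smallest difference listed was -0.126 points, for a region of 23 bp in the promoter of Cs3g03620 whose p was 0.0433 in the authors' deposited table. In all, 163 regions differed by less than 5 points and 45 by less than 1 point. Because these p-values set cytosines of 1 library against those of another, they carry no information on how trees vary.

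The largest differences with a corrected p under 0.05 were in single promoters on unplaced sequence and on chromosomes 6 and 7. In the authors' deposited table, a region of 27 cytosines in the promoter of orange1.1t02479, covering positions 37918111 to 37918259 on unplaced sequence, stood 71.0 points higher (corrected p 0.00011). The whole promoter of that gene stood at 24.55% CHH methylation under light drought and 14.83% under normal water. The next region of the same promoter was higher by 23.5 points, and the last one had -11.04 points. On chromosome 6 at 11263344 to 11263507, a region of 21 cytosines in the promoter of Cs6g09500 stood 65.2 points higher (corrected p 0.0332, from the authors' deposited table). The promoter stood at 14.75% under light drought against 7.84% under normal water, while its gene body was at 0.63% against 0.09%. The region of Cs7g05880, covering positions 3209302 to 3209376 of chromosome 7, stood 60.8 points higher and had the same corrected p in the authors' deposited table. There the promoter stood at 23.56% under light drought against 10.13%.

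Of the regions that were lower with a corrected p under 0.05, that of Cs3g19290 differed most. In the authors' deposited table it spans 22590310 to 22590371 of chromosome 3, with 20 cytosines, -43.2 points and 0.0224 as its corrected p. The promoter as a whole stood at 4.0% under light drought and 5.25% under normal water, so a large difference over 62 bp went with a small one over the promoter. The region of Cs7g26010 differed by -23.6 points and that of Cs7g20860 by -23.4 points, with corrected p-values of 0.0484 and 0.0156 in the authors' deposited table. Their promoters stood at 1.02% against 2.08%, and at 9.22% against 11.57%.

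Some larger differences had a corrected p above 0.05. The largest, 82.5 points, was that of a region of 63 bp and 10 cytosines in the promoter of Cs2g27980, on chromosome 2 at 27685148 to 27685210, and its corrected p was 0.262 in the authors' deposited table. The promoter stood at 16.84% under light drought against 6.81% under normal water. The promoter of Cs2g31340 held 4 higher regions within 358 bp of chromosome 2, with differences of 27.4, 42.9, 66.9 and 49.98 points, and stood at 20.05% under light drought against 10.64%. In the opposite direction, the region with the most negative difference was in the promoter of Cs2g05700, where it extended over 121 bp with -63.8 points. The next 2 regions of that promoter were also lower, by -36.3 and -9.34 points, and 2 further ones were higher, by 28.4 and 10.6 points. The promoter stood at 12.13% under light drought and 17.62% under normal water. A region of 115 bp on chromosome 6 at 12606280 to 12606394, with -53.3 points, was assigned to the promoters of both Cs6g11420 and Cs6g11430. Those promoters stood at 3.63% against 11.29% and at 14.01% against 19.06%. The region of Cs4g10100 with -48.3 points lay in a promoter at 28.52% under light drought and 27.40% under normal water. These coordinates refer to a genome build that the sources used here do not name.

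Most genes had a single region in the promoter. There was 1 region in 4765 genes (57.1%), 2 in 1924 genes (23.1%), 3 in 869 genes and 4 in 402 genes. At least 5 regions were found in 384 genes (4.60%) and at least 10 in 9 genes. The mean was 1.81 regions per gene. The regions of a transcript extended over at most 2029 bp in the 12344 transcripts named. The sources used here do not state the distance that defines a promoter. A region can belong to several promoters: 997 regions (7.09%) were assigned to 2 or 3 genes, and 1087 genes were named by such regions alone.

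Direction was mixed in a part of the promoters. In 6028 genes (72.2%) all regions were higher, in 1004 genes (12.0%) all were lower, and in 1312 genes (15.7%) regions of both signs occurred. Among the 4765 genes with 1 region it was higher in 3840 and lower in 925. Among the 3579 genes with several regions, 2188 had higher regions only, 1312 had both signs and 79 had lower regions only. The share with both signs was 29.0% of genes with 2 regions, 40.3% with 3 and 50.2% with 4. With 82.4% of all these regions higher, a mix becomes likelier with each added region even if signs are independent. A departure from that was not tested. In promoters with both signs the higher regions outnumbered the lower in 606 genes, equalled them in 608 and were fewer in 98. Counting only regions of at least 20 points, both signs occurred in 284 genes, 19.9% of the 1426 with several such regions. With 4 regions all of them were lower in 1 gene, and none of the 384 genes with 5 or more had lower regions only. Lower regions were 2475 of 14067, so genes with many regions, all lower, would be rare if signs were independent.

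**Figure D2:**
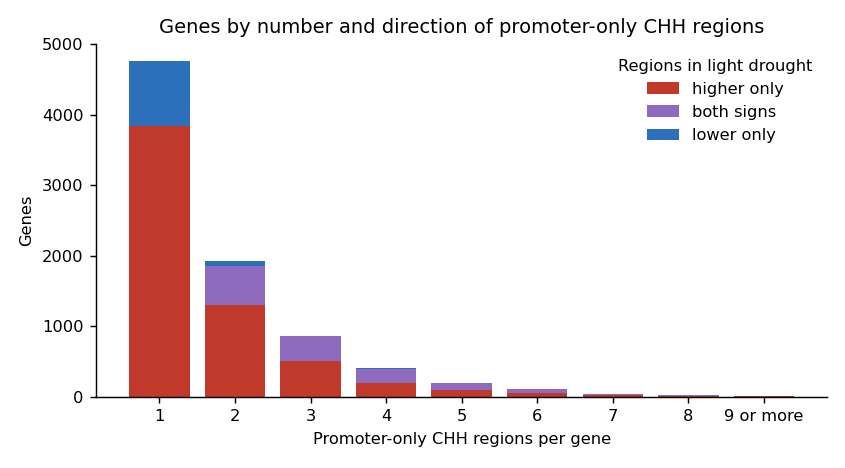
Bars give the number of genes (of 8344) by the number of promoter-only CHH regions they hold, coloured by whether those regions were higher only, of both signs, or lower only under light drought. Lower regions alone are found mostly in the 925 genes with 1 such region, and both signs make up a growing part of the bars from 2 to 4 regions. Over all promoter-only regions 82.4% were higher, and a departure from independent signs was not tested.

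Opposite signs also occurred at short distance. Among neighbouring regions of the same promoter, 4495 pairs were both higher, 216 both lower and 1654 opposite, so that 74.0% of 6365 pairs had the same sign. With less than 100 bp between them the share was 78.3% of 2987 pairs. It was 71.2% of 1083 pairs from 100 to 200 bp, 70.03% of 1218 from 200 to 500 bp, and 67.8% of 757 from 500 to 1000 bp. At 1000 bp or more it was 73.75% of 320 pairs. Within 100 bp, the region that followed a lower one along the chromosome was lower in 23.8% of 407 pairs, and the one that followed a higher one was lower in 13.1% of 2580 pairs. From 100 to 200 bp these shares were 17.5% of 177 pairs and 18.3% of 906 pairs. From 200 to 500 bp they were 21.0% of 248 pairs and 17.4% of 970 pairs. With 82.4% of all promoter-only regions higher, most pairs would share a sign even if signs were independent, and a departure was not tested.

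The promoters with the most regions showed long runs of one direction. Cs8g14010 held 17 regions, 16 higher by 4.94 to 22.0 points and 1 with -8.23 points, within 1786 bp of chromosome 8. Its promoter stood at 23.79% CHH methylation under light drought and 17.83% under normal water, with CG at 97.04% against 95.96%. Its gene body was methylated as well, at 15.55% against 12.33% in CHH and 69.99% against 66.42% in CHG. The 16 regions of orange1.1t00033 were all higher, by 9.28 to 41.5 points, over 1817 bp, and the promoter level was 38.22% under light drought against 19.86%. Its regions from position 623858 on were also assigned to orange1.1t00034. The gene body of orange1.1t00033 had almost no CHH methylation, with 0.30% against 0.16%. In the promoter of orange1.1t00204, 13 regions were higher by 7.71 to 57.9 points within 933 bp, and the level was 29.85% against 19.96%. Its CG level was lower under light drought, at 29.33% against 32.83%.

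Of the promoters with both signs, Cs8g14010 had the most regions, followed by 4 genes with 10 regions each, among which Cs7g10750 and Cs9g03800 had the widest range of differences. Cs7g10750 had 7 higher regions of up to 38.5 points and 3 lower ones of -22.5, -21.2 and -7.34 points, interleaved over 1456 bp. Its promoter was densely methylated in both libraries, at 41.64% under light drought and 36.00% under normal water in CHH and at 94.66% against 93.09% in CG. Cs9g03800 had 9 higher regions of up to 45.5 points and 1 with -10.9 points. The promoter stood at 42.63% against 30.01% in CHH and at 80.35% against 67.38% in CHG, and its gene body at 0.22% against 0.37% in CHH.

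**Figure D3:**
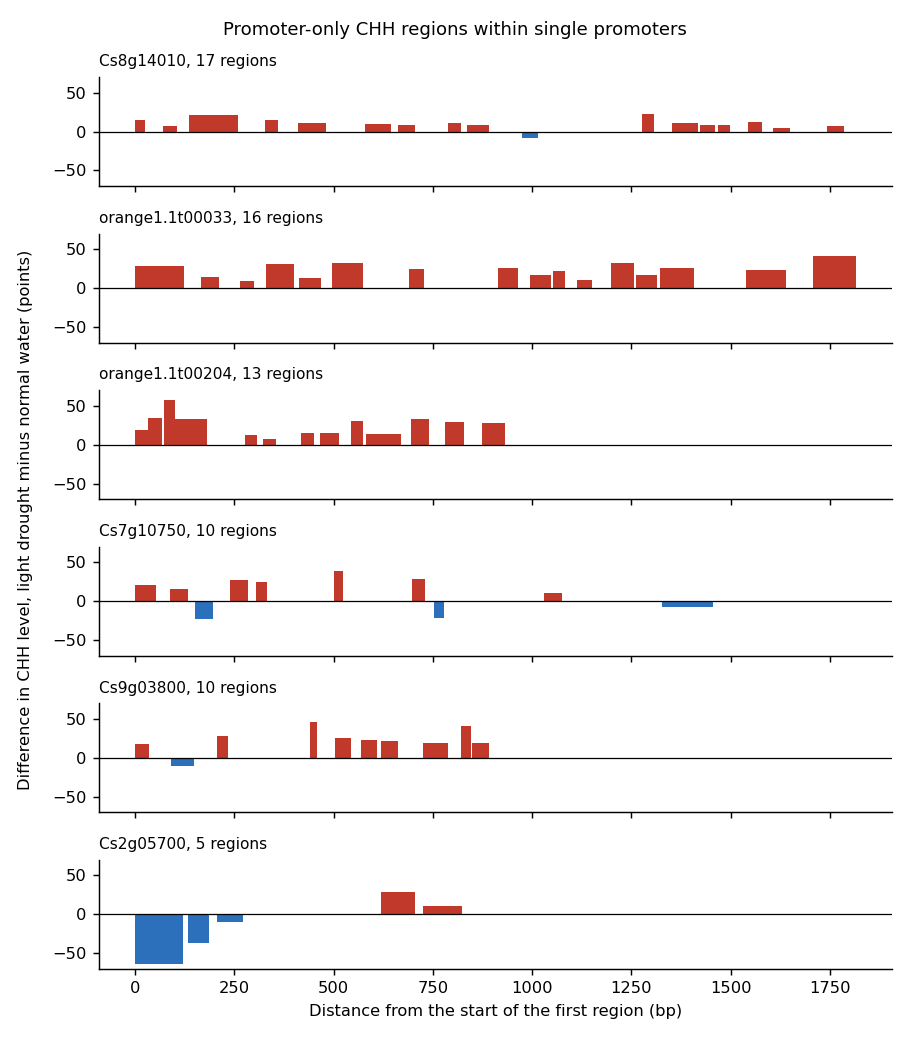
Each panel shows the promoter-only CHH regions of 1 gene as bars as wide as the region, against the distance in bp from the start of its first region; bar height is the difference, light drought minus normal water, in points. Cs8g14010, orange1.1t00033 and orange1.1t00204 have runs of higher regions, while Cs7g10750, Cs9g03800 and Cs2g05700 have regions of both signs.

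The promoters that held these regions were more methylated in both libraries than the other promoters. The mean CHH level of the 8344 promoters hit was 22.6% under light drought against 18.2% under normal water. In the 20729 genes not hit it averaged 8.74% under light drought and 7.15% under normal water. The medians were 20.56% and 16.10% in the genes hit and 3.03% and 2.06% in the others. Only 484 of the promoters hit (5.80%) were below 5% in both libraries, beside 40.1% of all genes. The mean difference was 4.42 points (SD 4.58 over genes) in the promoters hit and 1.59 points (SD 5.48) in the others, with medians of 3.76 and 0.32 points. A higher level under light drought was found in 7385 of the promoters hit (88.5%, beside 69.6% of all genes). A lower one was found in 953 (11.4%, beside 23.1%).

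Promoters with more higher regions had larger differences and mostly higher levels in both libraries. Genes with 1 region, a higher one, stood at 20.4% under light drought against 15.8%, a mean difference of 4.52 points. The difference was 5.58 points with 2 higher regions, 6.496 with 3, 6.82 with 4, 7.56 with 5 and 8.35 with 6 or more. The normal water level was 18.8% with 2 higher regions, 21.0% with 3, 22.8% with 4 and 22.4% with 5. Larger differences thus went with more methylated promoters, and the 2 were not separated. In the 84 genes with 6 or more, all promoters were higher under light drought, at 36.5% against 28.2%. Over all genes with higher regions only the level was 22.5% against 17.4%, and 92.9% of these promoters were higher. Promoters with both signs stood at 26.5% under light drought against 22.6%, and differed by 3.83 points. These levels are above the means of the genes with higher regions only and of those with lower regions only. However, genes with both signs had 3.18 regions on average, and genes with higher regions only had 1.63. Genes with 3 regions, all higher, stood at 27.5% under light drought against 21.0%. The sets were not matched by number of regions.

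**Figure D4:**
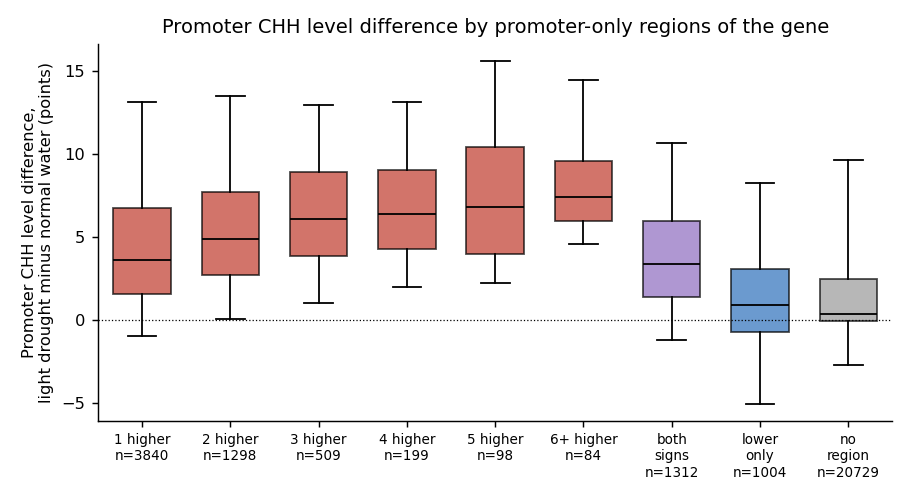
Boxes give the median and quartiles, and whiskers the 5th and 95th percentile, of the promoter CHH level difference (light drought minus normal water, in points) over the genes of each set. Medians run from 3.61 points with 1 higher region to 7.405 points with 6 or more, 3.37 points with both signs, 0.885 points with lower regions only and 0.32 points in genes without a region. The sets differ in promoter CHH level and were not matched by it.

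Genes with lower regions only did not have lower promoters on average. Their promoters stood at 18.1% under light drought against 17.0% under normal water, a mean difference of 1.09 points (SD 4.40 over 1004 genes). Of all 29073 promoters 69.6% were higher and 23.1% were lower. Of those with lower regions only, 631 were higher and 369 were lower, so 36.8% had the sign of their regions. The share was 35.4% with 1 lower region, 53.2% of 79 genes with 2 or more, and 47.5% of 59 genes with a region of -30 points or beyond. By contrast, 90.9% of the 3840 promoters with 1 higher region had its sign. Over the 4765 genes with 1 region, the differences of the region and of the promoter were correlated with Pearson's r of 0.354 and Spearman's rho of 0.376, across genes that are not independent and whose values come from the same reads. Within the genes with a higher region r was 0.247 and rho 0.263, and within those with a lower region r was 0.176 and rho 0.113, so the pooled values rest in part on the split by sign. The positive relation is also the check on the direction taken from the name of the table, since the gene levels carry the labels of the libraries.

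Single genes showed how far the 2 summaries can diverge. The promoter of orange1.1t00173 held 1 region of 74 bp with -8.27 points, while its level was 55.19% under light drought against 30.26%. Cs8g18880 had a region with -13.2 points and a promoter at 62.85% against 40.40%. The reverse was seen in Cs6g14250, with regions higher by 29.2 and 20.3 points and a promoter at 25.28% under light drought against 35.74% under normal water. Cs9g09710 had a region higher by 13.8 points and a promoter at 5.79% against 15.67%. The regions covered 55 to 109 bp in these 4 genes, and the length of their promoters is not given.

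Up to a level of 40%, promoters with a higher level more often held regions, and their difference was also larger, both with and without regions. Genes were grouped by the CHH level averaged over both libraries. Regions were found in 1.25% of 6010 promoters above 0 and up to 1%, 31.6% of 3714 between 5 and 10%, 54.6% of 3801 between 20 and 30%, and 63.2% of 1591 between 30 and 40%. The share was 63.0% of 962 promoters between 40 and 60%, and 47.1% of 119 above 60%. Between 10 and 20%, promoters with regions differed by 4.05 points (17.0% under light drought against 13.0%) and those without by 3.03 points (16.0% against 13.0%). Between 30 and 40% the values were 6.38 points in 1005 genes with regions and 6.43 points in 586 genes without. The SD over genes was 5.67 points in the first and 14.4 points in the second. Between 40 and 60% they were 6.61 and 6.28 points. The difference between genes hit and not hit was thus smaller at a given level than over all genes. Genes with lower regions only differed by less than genes without regions at these levels. Their values were 1.04 points between 10 and 20%, 2.52 points between 30 and 40%, and 2.95 points between 40 and 60%.

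**Figure D5:**
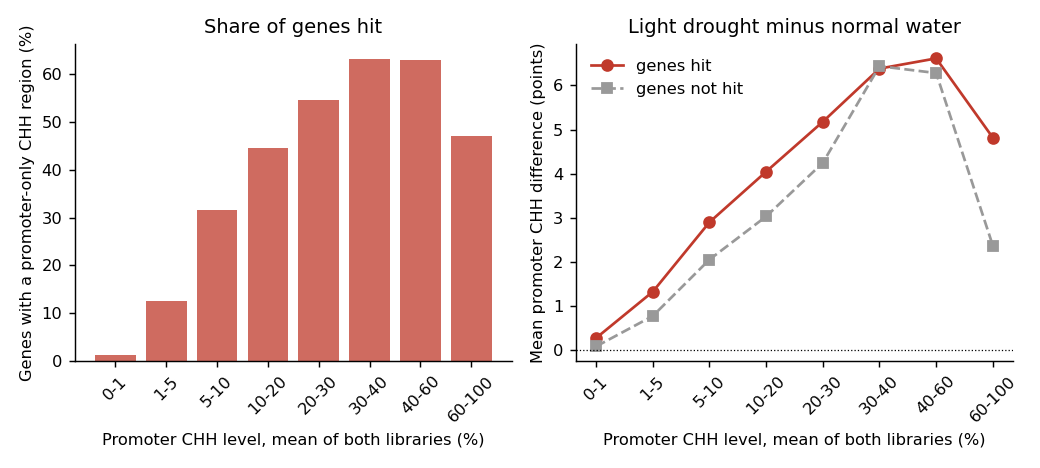
The left panel gives the percentage of genes with a promoter-only CHH region, and the right panel the mean promoter CHH difference (light drought minus normal water, in points) of genes with and without such a region, by promoter CHH level averaged over both libraries. The share of genes hit is 63.2% between 30 and 40%, where the mean differences of 6.38 and 6.43 points nearly coincide.

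Promoters were also counted by a fixed size of 10 points. The promoter CHH level was higher by at least 10 points in 871 of the genes hit (10.4%), beside 6.36% of all genes. It was lower by as much in 18 (0.216%), beside 0.729% of all genes. Since the regions were listed on the same contrast, nothing is read from these shares. Of all 1849 promoters higher by that size, 47.1% held a promoter-only region, and 978 held none, of which 15 held a CHH region shared between the promoter and another feature. Of the 212 promoters lower by that size 194 held no promoter-only region. In 69 of those 194 promoters, and in 85 of the 978, the CHH level was listed at 0 in 1 of the libraries, and the coverage behind such a value is not shown in the tables.

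The promoters with the largest differences among the genes hit each held 1 region. Cs2g17990 stood at 54.12% under light drought against 13.34% under normal water, with a region higher by 37.7 points. Its CG and CHG promoter levels were 66.67% and 86.67% under light drought and were both listed at 0 under normal water. Cs3g16860 stood at 53.59% against 14.91%, with its CG level listed at 0 under normal water, and Cs2g30920 at 73.46% against 42.06%. At the other end, the promoter of Cs3g12710 was at 3.03% under light drought against 31.95%, with a region of -33.3 points. Cs5g19480 was at 16.30% against 38.75% and Cs5g23400 at 40.18% against 59.95%, with regions of -28.4 and -24.4 points. The latter region was also assigned to the promoter of Cs5g23390.

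Gene bodies behind these promoters had little CHH methylation, though more on average than those of genes not hit. The mean level over the 8344 genes was 4.52% under light drought against 3.95% under normal water, with medians of 0.51% and 0.42%. Of these gene bodies 76.6% were below 5% in both libraries, beside 81.8% of all genes. In genes not hit the means were 3.10% and 2.73%. The mean body difference was 0.573 points in the genes hit, with a median of 0.11 points, and 0.366 points in the others. Bodies were higher under light drought in 5467 genes hit (65.5%, beside 61.7% of all genes) and lower in 2366 (28.4%, beside 29.3%). By at least 10 points they were higher in 74 of the genes hit (0.887%, beside 0.757% of all genes) and lower in 23 (0.276%, beside 0.368%). By the direction of the promoter regions, the mean body difference was 0.504 points with higher regions only, 0.774 points with both signs and 0.721 points with lower regions only.

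The largest body differences were mostly in genes with a level listed at 0 in a library. The body of orange1.1t00947 was at 50% CHH under light drought and listed at 0 under normal water, and that of orange1.1t00957 at 40% and likewise listed at 0. The body of orange1.1t05206 was listed at 0 under light drought and at 77.31% under normal water. Cs3g06540 had 23.80% under light drought against 100%, with its CG body level at 100% against a listed 0. The promoter regions of these genes differed by -36.5, 9.64, 15.5 and up to 29.0 points. The region of orange1.1t00947 was also assigned to orange1.1t00946.

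The CG and CHG levels of the promoters hit were also higher under light drought on average, by fewer points. Their CG level averaged 49.4% under light drought against 47.6% under normal water, a mean difference of 1.84 points (SD 7.29 over genes), and the CHG level 42.5% against 40.1%, a difference of 2.39 points (SD 6.91). In genes not hit the CG means were 24.8% and 23.6% and the CHG means 18.4% and 17.4%. By the direction of the regions, the CHG promoter difference was 2.72 points in genes with higher regions only, 2.07 points with both signs and 0.805 points with lower regions only. The CG differences were 2.13, 1.15 and 1.02 points. By at least 20 points, CG was higher in 117 of the promoters hit (1.402%) and lower in 56 (0.671%), beside 2.63% and 1.65% of all genes. CHG was higher in 109 (1.31%) and lower in 39 (0.467%), beside 2.08% and 1.2% of all genes. Gene bodies of the genes hit stood at 41.2% against 40.4% in CG and at 16.7% against 16.4% in CHG. Their CG bodies differed by at least 20 points upward in 0.971% and downward in 0.491% of the genes hit, beside 1.19% and 0.774% of all genes. For CHG bodies these shares were 0.623% and 0.431%, beside 0.619% and 0.557% of all genes.

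Few of the regions coincided with a region of another context. By at least 1 bp, 51 promoter-only CHH regions (0.363%) overlapped 48 of the 2782 CG regions (1.73%), in 53 pairs. In 38 pairs both were higher, in 6 both were lower, in 8 the CHH region was higher and the CG region lower, and in 1 the opposite. With CHG, 91 CHH regions (0.647%) overlapped 83 of the 3250 CHG regions (2.55%), in 93 pairs. Both were higher in 67 of these and lower in 11, while 15 pairs had opposite signs. The CHH region was higher in 86.79% of the pairs with CG and 86.02% of those with CHG, beside 82.4% of all promoter-only regions. The share of higher regions in the CG and CHG lists was not obtained, so nothing is read from the shared signs. Overlap was not obtained for other CHH regions either, so the low shares are not read as a trait of promoters.

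Most of the largest CG and CHG differences among the promoters hit involved a level listed at 0. The CG promoter level of Cs4g13950 was 100% under light drought and listed at 0 under normal water, with CHH at 69.02% against 61.04%. That of Cs2g23930 was listed at 0 under light drought and at 91.66% under normal water, with CHH at 27.97% against 22.72%, and that of orange1.1t05210 was listed at 0 against 80.00%. For CHG, orange1.1t02022 stood at 100% under light drought against 6.67%. Cs9g13540 and orange1.1t05512 were both listed at 0 under light drought and at 100% under normal water. The number of cytosines covered behind these values is not shown in the tables.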

How the data were processed

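Whole-genome bisulfite sequencing of 1 light drought and 1 normal water library was analysed. Bismark 0.20.1, SAMtools 1.4 and bedtools 2.26.0 were used, per the submitters' processing notes, which give them no role. The sources used here do not give the genome build, annotation, coverage minimum, read depth, conversion rate or region caller. The authors deposited the methylation level of each gene's promoter, gene body and downstream flank per context, in percent, per the file headers. There were 29138 genes for light drought and 29131 for normal water, and the 29073 in both were used. The authors also deposited 1 table of regions per context, with a p-value, a corrected p-value, the number of cytosines and the difference in points, a signed score, per the file headers. The 6 columns of levels per group in these tables were left out, since their names fit neither library's labels.

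A region counted as promoter-only when promoter was its only feature. Starts are printed counted from 1 and were read as counted from 0: the deposited overlap equalled end minus start in 96.9% of the regions and was longer in 0, and 111 neighbours touched while 0 overlapped. A gene level was called higher or lower from 10 points on in CHH and from 20 points on in CG and CHG. SDs are over genes, which are not replicates. The members, lists and rules were chosen with earlier results of these data known. Named regions are the 3 largest of each sign, over all and with a corrected p under 0.05. Named genes are the 3 with the most regions, the 3 of both signs with the most, and those at the extremes of the promoter and gene-body differences or of the divergence from their regions. None of the gene identifiers matched the reference table, so its symbols were not used, and flowering, methylation and drought gene lists could not be applied. Alternatives were other p, size and cytosine limits, merging of neighbours within 100 bp, numbered chromosomes only, and genes above 0 in both libraries. Python 3.11.15, numpy 2.4.6, pandas 2.3.3, scipy 1.17.1 and matplotlib 3.10.9 were used, and the merging, overlap and per-gene steps were tested on simulated data.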

Additional observations from a re-analysis of the deposited data

How the results depend on the processing

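No paired analysis was possible because each condition has 1 library, and for that reason no library could be left out. Counts and means counted as moved when they changed by more than 1.5 times, and shares when they left their 95% Wilson interval, which covers counting error over regions or genes that are not independent. Among 117 values obtained under other settings, 52 moved, 65 stayed within these limits and 0 reversed. Counts of genes hit, and of genes past a size limit, can only fall as the limit is made stricter. For the other values that moved, the cause was not tested. Depth is unknown, so no level has an interval.

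The share of higher regions became 88.8% at an uncorrected p of at most 0.001, 90% at a corrected p under 0.05 (where the median higher region was 38.6 points), 89.5% with at least 20 points and 90.3% with at least 15 cytosines. Merging neighbours of 1 sign within 100 bp gave 79.7%. The number of genes with both signs stayed at 1312, while the genes with several regions fell to 2816, so the share with both signs became 46.6%. At an uncorrected p of at most 0.001 there were 3588 genes hit, 733 with several regions, 3105 with higher regions only, 120 with both signs (16.4% of those with several) and 363 with lower regions only. With at least 20 points there were 5173, 1426, 284 with both signs (19.9%) and 430 with lower regions only. With a promoter difference of at least 2 points, 97.3% of genes with higher regions only and 30.5% with lower only had the sign of their regions. With regions naming 1 gene only, the second share was 33.8%. Overlap over at least 50% of the CHH region left 33 pairs with CG.

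With 5 points (10 in CG and CHG), genes hit were higher and lower in 3184 and 81 promoters in CHH, 831 and 284 in CG, and 840 and 199 in CHG, and in 299 and 67 bodies in CHH, 313 and 153 in CG, and 142 and 103 in CHG. With 15 points (30 in CG and CHG) these were 208 and 7, 24 and 14, 26 and 6, 28 and 13, 32 and 24, and 27 and 23. The shares of all genes at these limits were not obtained, so nothing about the genes hit is read from these counts. Above 0 in both libraries, 12, 20 and 22 bodies were lower by 10 points or more (20 in CG and CHG) in CHH, CG and CHG. Median body differences were 0.11, 0.17 and 0.03 points.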

Other observations

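The direction of the promoter-only CHH regions varied little along the genome. On the 9 numbered chromosomes between 81.6% (chromosome 2) and 84.9% (chromosome 6) were higher under light drought, and 81.0% on the unplaced sequence. Chromosome 7 held the most of any numbered chromosome, with 2361 regions in 1273 promoters, and chromosome 9 the fewest, with 821 regions in 481 promoters. The median size of higher regions lay between 19.6 points on the unplaced sequence and 21.3 points on chromosome 6.

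Genes with promoter-only CHH regions also held CHH regions elsewhere. In 1956 of the 8344 genes (23.4%) a region was assigned to the downstream flank, beside 19.3% of all 29073 genes. These are 34.8% of the 5614 genes with such a region, beside the 28.7% of all genes that had a promoter-only region. Exon regions were found in 602 of them (7.21%, beside 5.27% of all genes) and 5' UTR regions in 102 (1.22%, beside 0.788% of all genes). The downstream CHH level of the genes hit was 9.61% under light drought against 7.96% under normal water, or 1.65 points more, beside 1.47 points in genes not hit.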
